A study of Mus musculus with 6 samples.

Results

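Nr4a1, Nr4a2 and Nr4a3, which encode the 3 orphan nuclear receptors of the NR4A family, and Rxra, Rxrb and Rxrg, which encode the 3 retinoid X receptors (RXR), were examined in MLE-12 cells. These 6 genes were selected by their names from the 34745 genes of the deposited table. No measured value was a criterion, but earlier results of these data were known when the choice was made. MLE-12 is a mouse lung epithelial cell line immortalized with a viral large T antigen. The NR4A1 overexpression group was transfected with a pCMV-SPORT6 plasmid that carries the open reading frame of mouse NR4A1 behind a viral promoter, and the control group was transfected with the pCMV-SPORT6 vector alone, both by lipofection. Each group had 3 libraries of total RNA, and the interval between transfection and RNA extraction was not given for them in the sources used here. The labels do not say whether the replicates of a group came from separate cultures, so the p-values measure only the spread between these libraries. In such bulk RNA, a larger share of transfected cells and more NR4A1 RNA in each transfected cell cannot be told apart, nor can counts from the plasmid and counts from the cells' own Nr4a1 gene.

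The NR4A receptors are immediate early transcription factors, whose activity follows mainly from how much of them a cell makes, since their ligand pocket is filled by bulky side chains. They bind an octamer, the NGFI-B response element, as monomers, and 2 of them, NR4A1 and NR4A2, also bind DNA together with an RXR. RXRs are the common heterodimer partner of the retinoic acid, thyroid hormone, vitamin D, PPAR and liver X receptors, and they bind 9-cis retinoic acid and certain fatty acids. In the lung, NR4A1 is known from inflamed and injured tissue, and RXR and retinoic acid receptors are known from the formation of alveoli.

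The 6 genes are related through their DNA-binding domain, 2 zinc fingers that are the most conserved part of nuclear receptors. Because the overexpressed gene and its relatives share this domain, its sequence is shown here to make visible how much of it reads could confuse. The following 30 coding bases start at the codon of the third cysteine of the first zinc finger, in the GENCODE M21 transcripts on GRCm38. They are written 5′ to 3′ on the coding strand, and capitals mark bases that differ from Nr4a1.
Nr4a1: tgtgagggctgcaagggcttcttcaagcgc
Nr4a2: tgtgagggctgcaaAggTttcttTaagcgc
Nr4a3: tgCgagggctgcaagggcttcttcaagAgA
Rxra: tgtgagggctgcaagggcttcttcaagAgG
Rxrb: tgCgagggctgcaagggTttcttcaagcgc
Rxrg: tgtgaAggTtgcaaAggcttcttcaaAAgG
Rxra and Rxrb differed from Nr4a1 at 2 of these 30 bases, Nr4a2 and Nr4a3 at 3, and Rxrg at 6. Nr4a2 and Nr4a3 were thus no closer to Nr4a1 in this stretch than Rxra and Rxrb were. Over a window of 198 bases of the domain, Nr4a3 matched Nr4a1 at 156 bases (78.8%), Nr4a2 at 152 (76.8%), Rxra at 151 (76.3%), Rxrg at 142 (71.7%) and Rxrb at 141 (71.2%). The longest stretch that a transcript of another of these genes shared exactly with Nr4a1 was 27 bases, in Rxra. Nr4a3 shared 24 bases with it, and Nr4a2, Rxrb and Rxrg shared 14 each. No other gene of the annotation held any 40 bases in a row of the Nr4a1 transcript.

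The gene structure around this stretch separated the families. In the NR4A genes an intron splits it, between exons 2 and 3 of Nr4a1 (chr15:101270943-101271738, + strand), exons 3 and 4 of Nr4a2 (chr2:57110764-57111602, − strand) and exons 3 and 4 of Nr4a3 (chr4:48052175-48055932, + strand). In the RXR genes it lies inside exon 4, on the + strand, at chr2:27741787-27741816 in Rxra, chr17:34034045-34034074 in Rxrb and chr1:167627315-167627344 in Rxrg. No gene of the table overlapped the span of any of the 6 genes.

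Nr4a1 (ENSMUSG00000023034, chromosome 15 from 101266846 to 101274792 in the file) was the transfected gene, and its level checks the labels. In NR4A1 overexpression replicates 1, 2 and 3 its counts were 50660, 60093 and 68555, and in control replicates 1, 2 and 3 they were 428, 510 and 463. All 3 NR4A1 overexpression libraries were far above all 3 controls, as their labels require. In FPKM, the authors' count scaled to gene length and to the library's total count, it was 1363, 1434 and 1598 against 10.04, 12.4 and 10.6. The NR4A1 overexpression mean was 1465 ± 120 FPKM and the control mean 11.0 ± 1.24 FPKM (SD, n = 3 each). The log2 fold change was 7.07 (standard error, SE, 0.136, 95% interval 6.75 to 7.39, adjusted p = 2.13e-06, edgeR's quasi-likelihood test), or 135-fold. By FPKM, Nr4a1 ranked 20, 25 and 22 among all genes in the NR4A1 overexpression libraries and 4619, 3924 and 4435 in the controls. The control cells therefore had a moderate level of their own Nr4a1 transcript, and transfection brought it among the most abundant transcripts of the cell. A gene was called where its adjusted p was under 0.05 and its change 2-fold or larger. Of the 6 genes 4 were tested, and Nr4a1 was the 1 called higher, one of 22 such genes, which are 0.170% of the 12941 genes tested. In the lower direction, 0 genes (0%) were called by edgeR's quasi-likelihood test, while 316 (2.44%) had an unadjusted p under 0.05 and DESeq2 called 2.

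**Figure D1:**
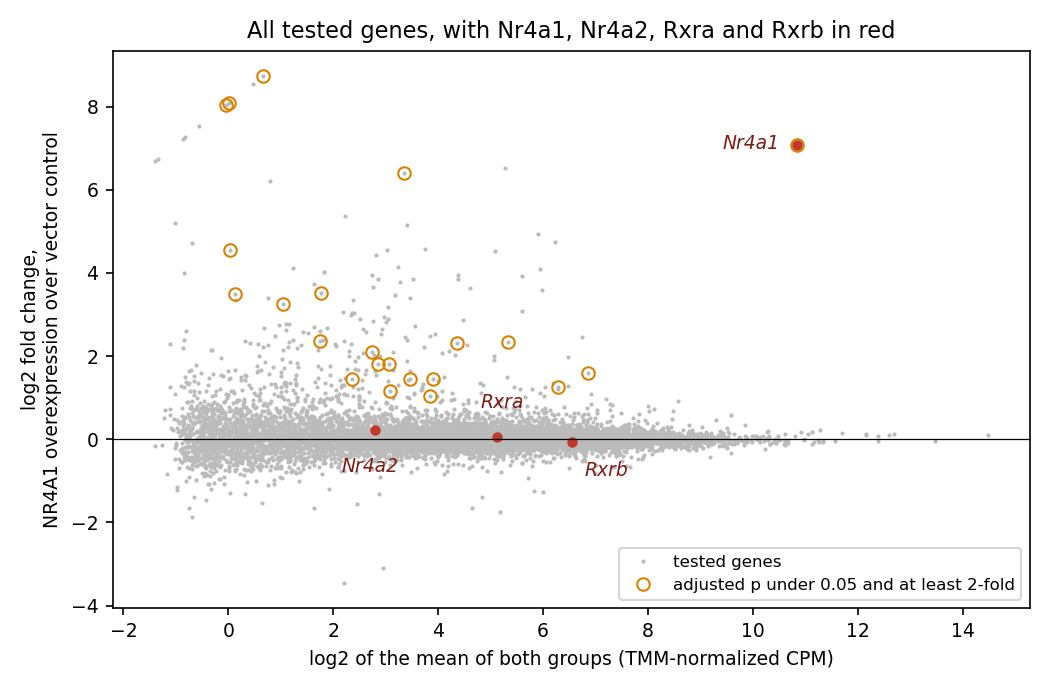
Log2 fold change, NR4A1 overexpression over vector control, of each of the 12941 tested genes (grey points) against the log2 of its mean level in both groups (TMM-normalized CPM, the count scaled to the effective library size). Nr4a1 lies at 7.07, far above other genes of its level, while Nr4a2 (0.21), Rxra (0.04) and Rxrb (-0.07) lie on the zero line, and orange circles mark the 22 genes called higher.

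Nr4a2 (Nurr1, ENSMUSG00000026826, chromosome 2 from 57106830 to 57124003) is best known for its need in midbrain dopamine neurons. Its counts were 127, 109 and 126 in the NR4A1 overexpression libraries and 105, 90 and 139 in the controls. The highest of its 6 counts was in a control library, and the groups overlapped. The NR4A1 overexpression mean was 1.16 ± 0.159 FPKM and the control mean 1.02 ± 0.202 FPKM (SD, n = 3 each). Its log2 fold change was 0.21 (SE 0.204, adjusted p = 0.921, edgeR's quasi-likelihood test). The 95% interval from -0.27 to 0.69 lies within a 2-fold change in either direction. Beside the large increase in Nr4a1, the counts of Nr4a2 thus lay between 90 and 139 in all libraries.

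Nr4a3 (Nor1, ENSMUSG00000028341, chromosome 4 from 48045153 to 48086447) overlaps in function with Nr4a1 in myeloid cells and T cells. Its counts were 2, 7 and 15 in the NR4A1 overexpression libraries and 7, 5 and 6 in the controls. These are close to the 3 counts taken as the limit of detection, which correspond to between 0.171 and 0.200 CPM in a library and cover counting error only. NR4A1 overexpression replicate 1 was the lowest and replicate 3 the highest of the 6, so that the control libraries lay between them. The gene was removed by the filter on low counts and has no test, and the log2 ratio of its group means was 0.44. Without NR4A1 overexpression replicate 3 the ratio was -0.34, so that its direction rested on that library.

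Rxra (ENSMUSG00000015846, chromosome 2 from 27676440 to 27762957) is the RXR that mouse embryos cannot do without. Its counts were 482, 646 and 614 in the NR4A1 overexpression libraries and 617, 535 and 632 in the controls. Both the lowest and the highest count belonged to NR4A1 overexpression libraries, and the groups overlapped. The means were 4.25 ± 0.366 FPKM with NR4A1 overexpression and 4.18 ± 0.252 FPKM without (SD, n = 3 each). The log2 fold change was 0.04 (SE 0.094, 95% interval -0.18 to 0.26, adjusted p = 0.973, edgeR's quasi-likelihood test). Its sign turned without NR4A1 overexpression replicate 2 (-0.02) and without control replicate 2 (-0.01), so no direction can be given.

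Rxrb (ENSMUSG00000039656, chromosome 17 from 34031812 to 34038393), which lies in the major histocompatibility region, was the most abundant of the 3 RXR transcripts. Its counts were 1236, 1626 and 1594 in the NR4A1 overexpression libraries and 1449, 1671 and 1825 in the controls. The lowest count was in the former and the highest in the latter, but the groups overlapped. The mean was 12.8 ± 0.999 FPKM with NR4A1 overexpression and 13.7 ± 1.51 FPKM without (SD, n = 3 each). The log2 fold change was -0.07 (SE 0.106, 95% interval -0.32 to 0.17, adjusted p = 0.954, edgeR's quasi-likelihood test). For both expressed RXR genes the interval stayed within a 2-fold change in either direction and spanned 0, so that small changes were not resolved with 3 libraries a group.

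Rxrg (ENSMUSG00000015843, chromosome 1 from 167598384 to 167639623) is known from skeletal muscle and brain. It had 0 counts in all 6 libraries. Over their 100672603 counts together, a count of 0 allows a level of up to 0.0298 CPM. Its transcript was therefore not detected at this depth in either group.

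**Figure D2:**
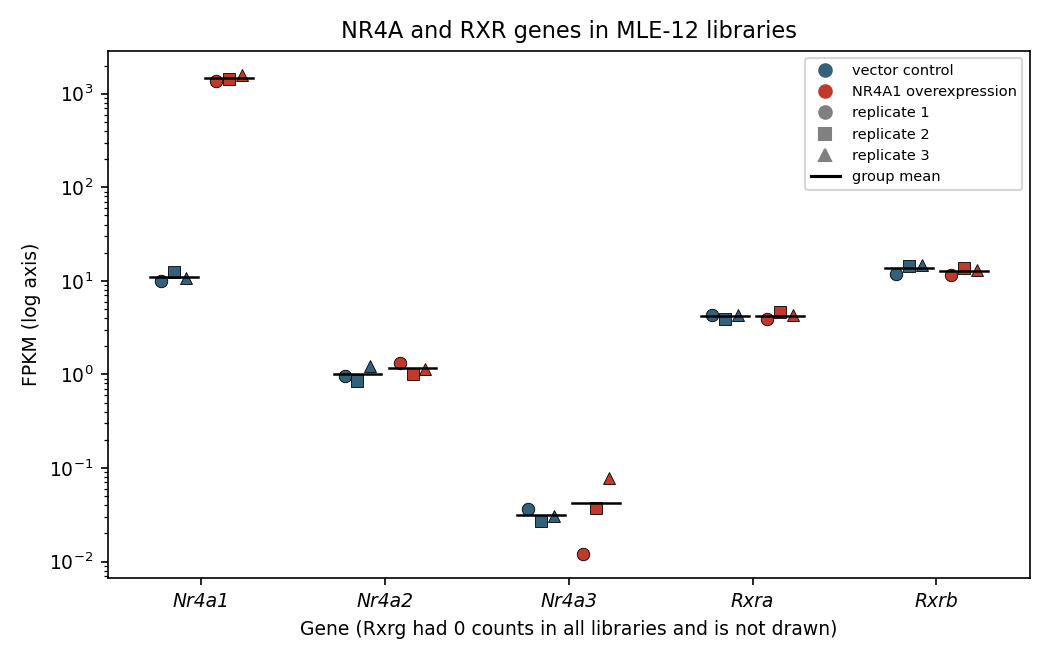
FPKM (log axis) of Nr4a1, Nr4a2, Nr4a3, Rxra and Rxrb in each of the 3 vector control and 3 NR4A1 overexpression libraries, with the marker shape giving the replicate and a line at the group mean. For Nr4a1 the groups lie at 11.0 and 1465 FPKM, and for the other 4 genes the points of the groups overlap.

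Levels can be compared between genes only per length. In the control group the order by FPKM was Rxrb (13.7), Nr4a1 (11.0), Rxra (4.18), Nr4a2 (1.02) and Nr4a3 (0.0317), followed by Rxrg at 0. The neighbours Rxrb and Nr4a1 overlapped between libraries, since Rxrb was at 11.9 FPKM in control replicate 1 and Nr4a1 at 12.4 in control replicate 2, and each later step in this order was larger than the spread of the control libraries. The gene length behind these FPKM values, computed from the deposited counts, was 7051 bases for Rxrb and 2474 bases for Nr4a1, whereas the coding transcripts of GENCODE M21 used above are 2627 and 2477 bases long. Scaled by the length of those transcripts, the control levels were 36.4 ± 3.95 CPM per kilobase for Rxrb, 11.0 ± 1.19 for Nr4a1, 7.03 ± 0.451 for Rxra, 1.81 ± 0.362 for Nr4a2 and 0.0608 ± 0.00941 for Nr4a3 (SD, n = 3 each). The order was unchanged by this choice of length, but Rxrb was then clearly above Nr4a1, without overlap of the libraries. The NR4A transcripts of control cells were mostly Nr4a1, which made up 91.0%, 93.4% and 89.3% of the FPKM of the family in the 3 libraries. After transfection its share was 99.9% in each library.

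The amount of Nr4a1 transcript relative to that of its possible RXR partners was then compared between the groups. In the control libraries the ratio of Nr4a1 FPKM to the summed FPKM of the RXR genes was 0.618, 0.684 and 0.559. In the NR4A1 overexpression libraries it was 87.7, 78.7 and 92.3. The means were 0.620 ± 0.0626 and 86.3 ± 6.92 (SD, n = 3 each), a mean log2 difference of 7.12. The groups did not overlap, and the exact permutation test gave p = 0.1, the smallest value that 3 libraries against 3 allow. Since Nr4a1 was the transfected gene, the transfection fixed this separation in advance, and the test adds nothing to the label check. The ratios describe amounts only. With transcript lengths in place of the authors' lengths the ratio was 0.253 ± 0.0248 in the control group and 35.4 ± 2.79 in the NR4A1 overexpression group. On both scales RXR transcripts thus exceeded Nr4a1 transcripts in control cells and were far fewer in transfected cells, at the level of RNA.

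The balance between the 2 expressed RXR genes did not differ beyond the spread of the libraries. Rxrb contributed 75.1%, 74.7% and 75.3% of the RXR FPKM in the NR4A1 overexpression libraries and 73.4%, 78.6% and 77.2% in the controls. The range of the former lay inside that of the latter. The ratio of Rxra to Rxrb FPKM was 0.332 ± 0.00518 with NR4A1 overexpression and 0.310 ± 0.0468 in the control group (SD, n = 3 each; exact permutation test, two-sided p = 0.4). With transcript lengths it was 0.209 and 0.195.

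Genes next to the cells' own Nr4a1 locus were examined as a measured background for that locus. Of the 6 genes of the table within 100 kb, none overlapped Nr4a1, and 4 passed the filter on low counts. Their log2 fold changes were between -0.38 and -0.06. The largest change and the smallest adjusted p (0.255, edgeR's quasi-likelihood test) were those of Krt80, named after its values were seen. Its unadjusted p from the same test was 0.00226. Krt80 was counted 453, 541 and 523 times against 746, 642 and 693 in the controls, without overlap. Of all tested genes, 6.22% were likewise lower without overlap. The untested pair, 6030408B16Rik and A330009N23Rik, had at most 7 counts in any library.

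The NGFI-B response element AAAGGTCA, to which NR4A monomers bind, was searched on both strands of RefSeq promoters on GRCm38.p6, from 250 bases before to 50 after each start site. It was found in 1.51% of 32851 promoters. The 6 genes have 9 such promoters, and the octamer was in 1 promoter of Rxra and 1 of Rxrg. Both lie within the gene, at a start site downstream of its first one. The matches are shown with their surroundings on the + strand, with the octamer in capitals.
Rxra, chr2:27709231-27709260: tgggtggcaggAAAGGTCAgtcactctctg
Rxrg, chr1:167618164-167618193: gatcggggttgAAAGGTCAgctgaaagctt
The octamer began 50 bases before the start site in Rxra and 90 bases before it in Rxrg. Neither window overlapped an annotated exon of GENCODE M21. The promoters of Nr4a1, Nr4a2, Nr4a3 and Rxrb did not hold the octamer in these windows, and none of the 6 genes held a direct repeat of AGGTCA with 1 base between (AGGTCANAGGTCA), the element of many RXR dimers, which 0.0396% of all promoters hold.

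The genes whose pattern over the 6 libraries was most like that of Nr4a1 were found by the root mean square difference of their log2 CPM, each gene centred on its control mean. Since Nr4a1 itself differs strongly between the groups, this choice fixed a large rise of these genes in advance. Their fold changes and adjusted p-values come from the same libraries, so they only describe the chosen genes. The nearest was 5430421N21Rik, at 0.904. Its counts were 240, 390 and 363 in the NR4A1 overexpression libraries and 6, 4 and 2 in the controls, and it rose with a log2 fold change of 6.39 (SE 0.323, adjusted p = 0.00106, edgeR's quasi-likelihood test). Next came Uroc1, an enzyme of histidine breakdown, at 1.68, then Gcnt1, a transferase that branches O-glycans, at 1.87, Ccdc8, a part of the 3M complex, at 2.04, and Hapln1, a link protein of hyaluronan and proteoglycans, at 2.08. Uroc1, Gcnt1 and Hapln1 had 0 counts in all 3 controls, and Ccdc8 had 2, 0 and 0. Against 3 counts per control library, Uroc1 was at least 18.0-fold higher, Gcnt1 at least 15.9-fold, and Hapln1 at least 11.6-fold. Uroc1 and Hapln1 passed the threshold (adjusted p = 0.0428 for each, edgeR's quasi-likelihood test), and Gcnt1 (0.0701) and Ccdc8 (0.0734) did not. The calls of Uroc1 and Hapln1 were lost with a mean of at least 10 counts as the filter, where the adjusted p was 0.0635 for both. With each library left out in turn, Uroc1 lost its call every time and Hapln1 kept it only without NR4A1 overexpression replicate 2. None of these 4 genes was close to Nr4a1 in control cells, where it was counted 428 to 510 times.

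Since RXRs act with other receptors, 7 lists of linked genes were counted with the same test. They hold 90 genes, of which 66 were tested. Of these, 1 was called higher (Eno3) and 0 lower by edgeR's quasi-likelihood test. At an unadjusted p under 0.05, 13 (19.7%) were higher and 4 (6.06%) lower, against 4.02% and 2.44% of all tested genes. DESeq2 called 4 of the 66 higher, beside 71 of all 12941 tested genes. The groups did not overlap for 13 genes (19.7%) in the higher and 6 (9.09%) in the lower direction, against 6.69% and 6.22% of all tested genes. Without NR4A1 overexpression replicate 2 they did not overlap for 16 of 67 genes (23.9%) in the higher and 8 (11.9%) in the lower direction, against 13.7% and 13.8% of all tested genes. The median log2 fold change was 0.01, as it was over all tested genes. The lists were chosen with earlier results of these data known, so these counts are a description.

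Markers of other cell types differed between the libraries, most of all in NR4A1 overexpression replicate 2, and their values stand beside the lists for that reason. In NR4A1 overexpression replicate 2 the summed level of 6 smooth muscle markers was 323.6 CPM, against 1.49 to 2.95 in the other 5 libraries, and all 6 were highest there. Of 8 endothelial markers 7 were highest there, with a sum of 120.0 CPM against 7.82 to 9.71, and the sum of 8 fibroblast markers was 1556 against 918.3 to 1042. The sum of 8 immune markers was 5.96 against 2.14 to 3.58, and no endothelial or smooth muscle marker of the lists was at 0 in that library, whereas 4 or 5 of the endothelial markers were at 0 in each of the others. Control replicate 1 also held more counts of several fibroblast markers than the other controls, which the sum hides because Dcn makes up most of it. Col1a2 was counted 284 times there against 14 and 10 in control replicates 2 and 3, Col3a1 125 times against 18 and 19, and Pdgfra 92 times against 12 and 12. In NR4A1 overexpression replicate 2 the same 3 genes had 4504, 991 and 611 counts. The part of these transcripts in the results was not tested beyond values without a library. Among alveolar type 2 markers, Sftpc, Sftpb, Abca3, Etv5 and Nkx2-1 were counted in every library and Sftpa1 and Slc34a2 had 0 counts in all 6. The sum of the list was 305.7 to 326.9 CPM with NR4A1 overexpression and 319.4 to 335.1 CPM in the control group. Within it the groups did not overlap for Nkx2-1 (log2 fold change -0.32) and Sftpb (-0.27), which were lower, and Etv5 (0.30), which was higher. Their adjusted p-values were 0.620, 0.802 and 0.402 (edgeR's quasi-likelihood test). Sftpc and Abca3 overlapped. Of all tested genes, 6.22% were lower and 6.69% higher without overlap. The epithelial list summed to 616.9 to 727.0 CPM and 721.8 to 832.8 CPM. Krt19 and Krt8 made up most of this sum, with control means of 525.8 and 218.9 CPM. Cdh1 (log2 fold change -0.27) and Krt8 (-0.12) were lower without overlap, with adjusted p-values of 0.639 and 0.847 (edgeR's quasi-likelihood test). Epcam had at most 22 counts in any library, Cldn7 at most 11 and Cldn4 at most 1. Krt18 had 164 counts in NR4A1 overexpression replicate 2 and at most 21 elsewhere.

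Of 14 nuclear receptors that pair with RXR, 10 were tested and 0 were called by edgeR's quasi-likelihood test. At an unadjusted p under 0.05, 2 (20%) were higher and 3 (30%) lower, against 4.02% and 2.44% of all tested genes. Rarb, a retinoic acid receptor whose own gene is a classical retinoic acid target, had the highest level of the list. Its counts were 1464, 1630 and 1499 in the NR4A1 overexpression libraries and 1169, 1275 and 1289 in the controls, without overlap. Its log2 fold change was 0.38 (SE 0.0897, adjusted p = 0.313, edgeR's quasi-likelihood test). With DESeq2 the adjusted p of Rarb was 0.0409, with a change under 2-fold. Thrb, a thyroid hormone receptor, was counted 85, 102 and 88 times against 48, 37 and 64, a log2 fold change of 0.97 (SE 0.232, adjusted p = 0.330, edgeR's quasi-likelihood test). Both were higher in every NR4A1 overexpression library than in any control, as were 6.69% of all tested genes. The 3 that were lower at an unadjusted p under 0.05, Thra, Rara and Nr1h3, had log2 fold changes of -0.24, -0.25 and -0.26 and adjusted p-values of 0.744, 0.673 and 0.761 from edgeR's quasi-likelihood test. Rara and Nr1h3 were named after their values were seen. The median of the list was -0.09.

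The 12 coactivators and corepressors of nuclear receptors were all tested, and 0 were called by edgeR's quasi-likelihood test. Beside 4.02% of all tested genes, 1 of the 12 (8.33%) was higher at an unadjusted p under 0.05. This was Nrip1, a corepressor, with a log2 fold change of 0.58 (SE 0.196, adjusted p = 0.665, edgeR's quasi-likelihood test). It was counted 938, 654 and 877 times against 695, 483 and 593, and the groups overlapped. In both groups replicate 2 was the lowest. With a block for the replicate number its log2 fold change was 0.56 (SE 0.0749, adjusted p = 0.153, edgeR's quasi-likelihood test), which was not called either. Rcor1 and Hdac3, the corepressor genes with the highest levels, both had a log2 fold change of 0.00. The coactivator Ncoa2 was at 0.14 and the list's median at 0.01.

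Retinoid genes hold the enzymes and carriers that make, bind and break down retinoic acid, from which RXR and RAR ligands derive. Of 12 genes 7 were tested, and 0 were called by edgeR's quasi-likelihood test. At an unadjusted p under 0.05, 4 (57.1%) were higher and 0 (0%) lower, against 4.02% and 2.44% of all tested genes. The median log2 fold change of the 7 was 0.39, and it was 0.27 without NR4A1 overexpression replicate 2. In that fit 3 genes had an unadjusted p under 0.05. The groups then did not overlap for 3 of the 7 in the higher direction, against 13.7% of all tested genes.

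Aldh1a2, which makes retinoic acid from retinal, had 881, 1019 and 1213 counts in the NR4A1 overexpression libraries and 713, 661 and 747 in the controls. All 3 of the former exceeded all 3 of the latter, as for 6.69% of all tested genes, and the control libraries varied little. The means were 27.8 ± 2.70 FPKM with NR4A1 overexpression and 18.2 ± 0.584 FPKM in the control group (SD, n = 3 each), and the log2 fold change of 0.63 did not pass (SE 0.0950, adjusted p = 0.0725, edgeR's quasi-likelihood test). Without NR4A1 overexpression replicate 2 it was 0.66.

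Cyp26b1, which breaks retinoic acid down, was counted 91, 202 and 131 times against 64, 43 and 58. The groups did not overlap, as for 6.69% of all tested genes in this direction, and replicate 2 was highest. Its log2 fold change was 1.43 (SE 0.293, adjusted p = 0.214, edgeR's quasi-likelihood test) and 1.11 without that replicate, and DESeq2 called it (adjusted p = 0.00171). Rdh10 oxidizes retinol to retinal, and Dhrs3, named after its values were seen, reduces retinal back. Rdh10 was counted 170, 202 and 230 times against 146, 123 and 126, with a log2 fold change of 0.68 (SE 0.137, adjusted p = 0.201, edgeR's quasi-likelihood test). With DESeq2 the adjusted p of Rdh10 was 0.0227, with a change under 2-fold. Dhrs3 had a log2 fold change of 0.33 with overlapping groups.

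Aldh1a1, another enzyme that makes retinoic acid, had 405, 1001 and 498 counts in the NR4A1 overexpression libraries and 555, 489 and 480 in the controls. Only replicate 2 was high, the library with the smooth muscle and endothelial markers. The log2 fold change of 0.39 (SE 0.294, adjusted p = 0.890, edgeR's quasi-likelihood test) became -0.07 without it.

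**Figure D3:**
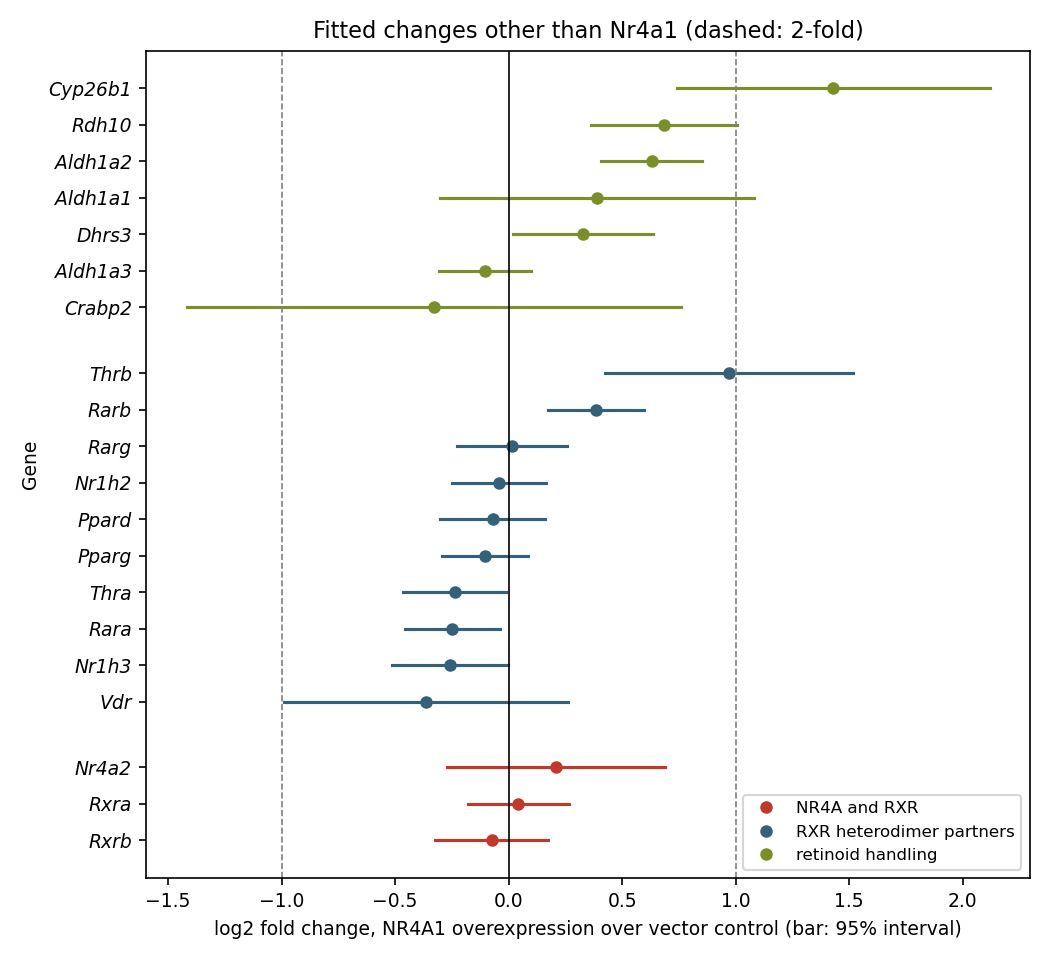
Log2 fold change, NR4A1 overexpression over vector control, with 95% intervals from edgeR's quasi-likelihood fit for the tested NR4A and RXR genes other than Nr4a1, the RXR heterodimer partners and the retinoid genes. The intervals of Nr4a2, Rxra and Rxrb span 0 and stay within the dashed lines at a 2-fold change, while Aldh1a2 (0.63), Rdh10 (0.68), Cyp26b1 (1.43), Thrb (0.97) and Rarb (0.38) lie above 0 with adjusted p-values over 0.05 in this fit.

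Of 11 known targets of RXR heterodimers 8 were tested, 0 were called by edgeR's quasi-likelihood test, and the median was 0.14. At an unadjusted p under 0.05, 2 (25%) were higher and 1 (12.5%) lower, against 4.02% and 2.44% of all tested genes. Tgm2, a transglutaminase that retinoic acid induces, had a log2 fold change of 0.28, and it was 0.03 without NR4A1 overexpression replicate 2, where its count was 4368 against 2314 to 3038 elsewhere. Cpt1a, which carries fatty acids into mitochondria and is a PPAR target, was at 0.22 (adjusted p = 0.735, edgeR's quasi-likelihood test). Nr0b2, a receptor without a DNA-binding domain, was at -0.72 with at most 46 counts, at -0.31 without NR4A1 overexpression replicate 1, -0.43 without control replicate 3 and -1.14 without NR4A1 overexpression replicate 2. Without NR4A1 overexpression replicate 2, 0 of these genes were higher at an unadjusted p under 0.05.

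Of 22 genes known as NR4A targets in liver, muscle, steroid-making cells or lymphocytes, 12 were tested. By edgeR's quasi-likelihood test 1 was called higher and 0 lower. At an unadjusted p under 0.05, 4 (33.3%) were higher and 0 (0%) lower, against 4.02% and 2.44% of all tested genes. Eno3, the muscle form of the glycolytic enzyme enolase, had 2412, 3199 and 2932 counts in the NR4A1 overexpression libraries and 865, 1106 and 1000 in the controls. Every NR4A1 overexpression library was above every control. It rose from 18.4 ± 2.64 to 55.0 ± 4.63 FPKM (SD, n = 3 each), with 1.60 as its log2 fold change (SE 0.120, adjusted p = 0.00836, edgeR's quasi-likelihood test). The call was lost without NR4A1 overexpression replicate 1 (adjusted p = 0.0511, edgeR's quasi-likelihood test), replicate 3 (0.110) or control replicate 3 (0.0845). With each of the 6 libraries left out in turn, its log2 fold change was between 1.51 and 1.71.

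Cd36, a fatty acid transporter, was counted 65, 115 and 75 times against 46, 25 and 34. The groups did not overlap, as for 6.69% of all tested genes in this direction. Its log2 fold change was 1.35 (SE 0.304, adjusted p = 0.292, edgeR's quasi-likelihood test), while DESeq2 called it (adjusted p = 0.0161). The count of Cd36 was highest in NR4A1 overexpression replicate 2, and without that library its log2 fold change was 1.10. Cdkn1a and Lpin1 were named after their values were seen. Cdkn1a, an inhibitor of cyclin-dependent kinases, was counted 643, 1788 and 826 times against 492, 496 and 486, with a log2 fold change of 1.21 (adjusted p = 0.460, edgeR's quasi-likelihood test) that was 0.68 without NR4A1 overexpression replicate 2. DESeq2 called Cdkn1a (adjusted p = 0.00726), and without that replicate its adjusted p was 0.0499 from edgeR's quasi-likelihood test, with a change under 2-fold. Lpin1, a phosphatidate phosphatase, was at 0.47. Pfkm, the muscle phosphofructokinase, was at 0.01, with 50.7 and 51.1 FPKM in the NR4A1 overexpression and control groups. Of the 10 untested genes, 4 had 0 counts in all libraries, among them G6pc and Pck1 of liver glucose production and Pomc of the pituitary. Others were named after their values were seen. Fbp2 had 7, 4 and 13 counts against 3, 0 and 0, close to the limit of detection and without overlap. Tnfsf10 had 24, 8 and 24 against 8, 2 and 10, with overlap. Ccl2 had 0, 63 and 0 against 5, 0 and 0. Fbp1, Ucp3 and Fasl had at most 2 counts in any library.

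**Figure D4:**
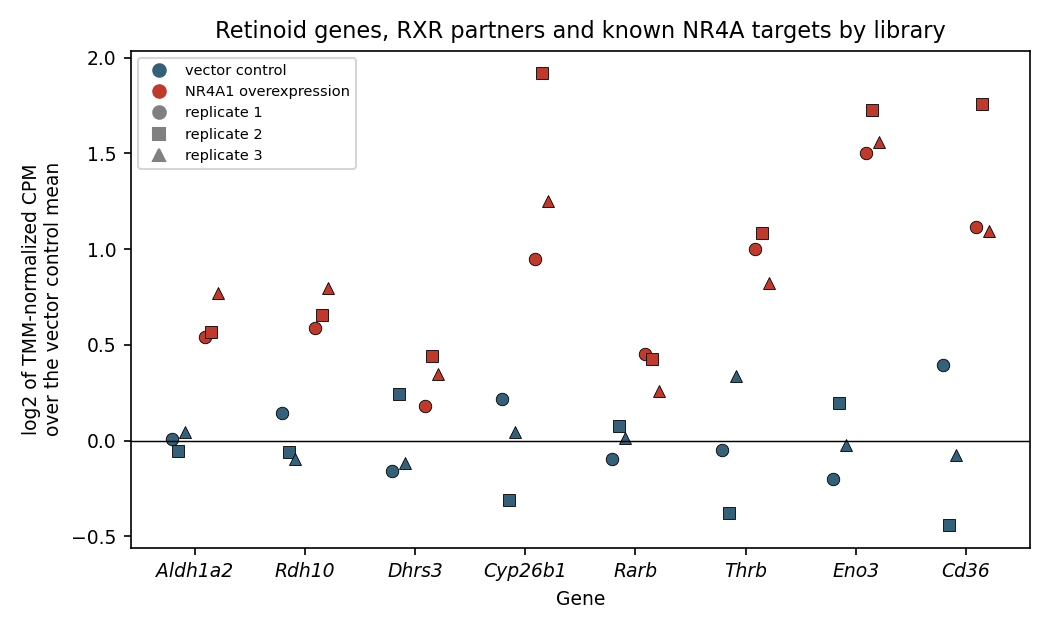
Log2 of the TMM-normalized CPM of 8 linked genes in each library over the mean of the vector control, with colour giving the group and marker shape the replicate. The 3 NR4A1 overexpression libraries of Eno3 lie together above the controls, whereas Cyp26b1 is highest in replicate 2, and Dhrs3 overlaps between the groups.

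Transcription regulators that act on the NR4A genes, and other immediate early genes, were examined at the level of RNA. The RNA of a regulator does not measure its activity, so the signals that usually raise Nr4a1 were not tested. Of the 11 regulators all were tested, 0 were called by edgeR's quasi-likelihood test and 0 had an unadjusted p under 0.05. The largest changes were those of Mef2a, of a factor family that acts on the Nr4a1 promoter in T cells (0.30), and Creb1, the cyclic AMP response factor (0.24). Both moved with the library left out, since Mef2a was at 0.03 without control replicate 3 and 0.52 without control replicate 1, and Creb1 at 0.08 without NR4A1 overexpression replicate 1 or control replicate 1 and 0.39 without control replicate 3. Cabin1, which holds MEF2 inactive, was at -0.16 and Srf at -0.02. Of 8 immediate early genes 6 were tested, and 0 were called or had an unadjusted p under 0.05 by edgeR's quasi-likelihood test. Fosb was at 0.40, Junb at -0.12 and Ier2 at -0.20. Egr2 was at 0.45, and at -0.28 without NR4A1 overexpression replicate 2, where its count was 39 against 7 to 24 elsewhere. Arc, which was removed by the filter on low counts and is named after its values were seen, had 5, 10 and 14 counts in the NR4A1 overexpression libraries and 0 in each control. It has no test, and the groups did not overlap.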

How the data were processed

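Total RNA of 3 NR4A1 overexpression and 3 vector control libraries of MLE-12 cells was made into strand-specific libraries and sequenced on an Illumina instrument, as the methods state. The submitters' processing notes name HISAT2 2.0.4 and GRCm38.p4. The counting program, its use of strand and the annotation were not given in the sources used here. The authors deposited 1 table with a raw read count and an FPKM for each gene in each library. Total counts were 15019038 to 17574340 per library, and 3 counts were taken as the limit of detection. No libraries of a group agreed within counting error, with a chi-square per degree of freedom of 9.36 to 41.8.

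Counts were fitted over all genes with edgeR 4.0.16 in R 4.3.3 (TMM factors, filterByExpr, quasi-likelihood test, Benjamini-Hochberg adjustment over 12941 genes). Ratios between the authors' FPKM values were compared with exact permutation tests (SciPy 1.17.1). Sequences were read with Python 3.11.15 from GENCODE M21 transcripts and RefSeq promoters.

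The alternatives were DESeq2 1.42.0, limma 3.58.1 on log2(FPKM + 1) where a group's mean FPKM reached 1, median-ratio size factors, library totals alone, no filter, a mean of at least 10 counts, no fold threshold, omission of Nr4a1, omission of each library, and a block for the replicate number. For the ratios they were counts in place of FPKM and 1 FPKM added to each gene. The values of linked genes under these alternatives, the list counts without NR4A1 overexpression replicate 2 and the transcript lengths were added later, with the data in view. The members and lists were chosen with earlier results of these data known. By rule, the text names the 6 genes, the 5 tested genes nearest to Nr4a1, and, of each list, the called genes, the 2 with the highest mean FPKM and the 2 with the largest change. Protein sequences were not used here. One gene of the retinoid list is not reported here, and the list counts leave it out.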

Additional observations from a re-analysis of the deposited data

How the results depend on the processing

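Nr4a1 passed in every alternative fit that held it, with a log2 fold change of 6.93 to 7.07 and, with each library left out in turn, 7.003 to 7.16. Nr4a2, Rxra and Rxrb passed in none. Rxrg gave no value under any alternative, and Nr4a3 gave none with DESeq2, limma or the block, since filters on low values removed it. The sign of Rxra turned without NR4A1 overexpression replicate 2 (-0.019) and without control replicate 2 (-0.0098), that of Ncoa2 without control replicate 2 (-0.028), and that of Egr2 (-0.28) without NR4A1 overexpression replicate 2. Over the libraries left out, these values reached 0.10 for Rxra, 0.276 for Ncoa2 and 0.850 for Egr2. Of all tested genes, 22 were called higher, against 8 with a mean of at least 10 counts, 71 with DESeq2, 7 with limma on log2(FPKM + 1) and 3 to 25 with each library left out (3 without NR4A1 overexpression replicate 1 or 3, and 5, 6 and 4 without control replicates 1, 2 and 3). Called lower were 0, against 2 with DESeq2, 1 without the fold threshold and 0 to 3 with each library left out (3 without NR4A1 overexpression replicate 2). In the linked lists 1 gene was called higher, against 4 with DESeq2 and 0 to 1 with each library left out. With transcript lengths the ratio of Nr4a1 to RXR was 0.253 and 35.4 in the control and NR4A1 overexpression groups, and that of Rxra to Rxrb 0.195 and 0.209. The causes were not tested.

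The groups share replicate numbers, but the deviations of same-numbered libraries correlated at -0.01, -0.05 and 0.25, so the numbers were not taken as pairs. These correlations run over all genes, and single genes can still share a deviation. Ncor1 was at 233.8 and 228.6 CPM in replicate 2 of the NR4A1 overexpression and control groups, against 308.5 to 355.1 elsewhere. With a block for the number the SE was 0.0653 in place of 0.106 for Rxrb and 0.0749 in place of 0.196 for Nrip1. For Thrb it was 0.256 in place of 0.232. A replicate block left 5 genes called higher and 0 lower. Nr4a1 (7.07) and Eno3 (1.60) kept their calls, and Uroc1 and Hapln1 did not.

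Depth limits Nr4a3 and Rxrg, and 3 libraries a group limit the intervals of the others. The deposited values are gene totals, so plasmid and endogenous Nr4a1 cannot be told apart.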

Other observations

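The half-site AGGTCA, which is contained in the NGFI-B response element and in the elements of many RXR dimers, was in the RefSeq promoters of 7 of the 18 genes called higher that had a promoter in the table (Acacb, Cytip, Eno3, Krt13, Perm1, Trpm1 and Uroc1, named after the values were seen). This is 38.9%, beside 1386 of 9421 tested genes (14.7%). The whole octamer AAAGGTCA was in 0 of the 18, beside 1.02% of the tested genes. The share was not tested against chance, and a gene with more start sites has more sequence searched.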
